A study of Macaca mulatta with 136 samples.

Results

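The genes described here are the angiopoietins ANGPT1 and ANGPT2, their receptor TEK (TIE2) and its partner TIE1, and 6 markers of blood vessel lining cells: PECAM1, VWF, EMCN, PLVAP, CA4 and CLDN5. They were found by their symbol in the deposited tables, where the 10 genes have 11 entries among 19422 gene identifiers with 17721 symbols, because 2 identifiers carry the symbol CA4. The 2 CA4 entries are given separately, and which of them holds the reads of the gene is uncertain. RNA came from 2 mm punches of eyes taken after death from 2 adult rhesus macaques, RM03 and RM04. Each of the 4 eyes gave neural retina and RPE/choroid, which is the retinal pigment epithelium together with the choroid, from the fovea/macula (here the fovea), the perimacula, a nasal location and the periphery. This made 32 poly-A RNA-seq libraries, with 4 eyes as the replicates of each tissue and location, and fellow eyes share an animal. Levels are given in CPM, which are counts scaled to the size of the library with TMM factors, and lists of 4 values are always in the order RM03 right eye, RM03 left eye, RM04 right eye, RM04 left eye. CPM is not divided by gene length, so levels are compared between samples and never between genes.

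Angiopoietin-1 is the activating ligand of the receptor tyrosine kinase TIE2 and is made largely by the cells around vessels, whereas angiopoietin-2 is released by endothelial cells and opposes or partly replaces it depending on context. TIE1 binds neither ligand directly and modulates TIE2. The retina and the choroid have different vessels: retinal capillaries have tight junctions and form a blood-retina barrier, while the choriocapillaris beneath the pigment epithelium is fenestrated and supplies the outer retina.

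The libraries held between 42448903 and 78574055 estimated counts. Per the lane names, 2 flow cells with 5 lanes carried fovea, perimacula and nasal samples, while the periphery ran separately on a different flow cell with 2 lanes, so a difference from the periphery cannot be told apart from a difference between flow cells. Markers separated the tissues: 9 rod genes summed to between 4013 and 28040 CPM in the retina libraries and to between 50.1 and 924 CPM in RPE/choroid, and 5 pigment epithelium genes to between 117 and 979 CPM in retina and between 2539 and 16430 CPM in RPE/choroid. Of the RPE/choroid libraries, the RM03 left eye at the periphery stood apart with 11520 CPM over 4 Schwann cell genes and the lowest pigment epithelium sum, and the RM03 right eye at the perimacula had 6789 CPM over the Schwann cell genes, against 44.4 to 86.4 CPM in all fovea and nasal libraries of the tissue. In bulk tissue, fewer cells of a type and less RNA per cell cannot be told apart.

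Every one of the 11 entries was lower in retina than in RPE/choroid at the fovea (adjusted p from 2.38e-16 to 3.65e-05, edgeR quasi-likelihood test with Benjamini-Hochberg adjustment over all genes tested, the test used throughout). At this location 74.6% of all 16284 genes tested were called at an adjusted p under 0.05, and 36.8% were called as lower in retina. At the perimacula, 10 of 11 entries were called, all lower in retina, against a background of 75.6% in either direction and 37.8% lower in retina. The same 10 of 11 were called at the nasal location, with backgrounds of 76.2% and 38.6%, and at the periphery, with 74.3% and 37.1%. The entry that was not called at these 3 locations was CLDN5. The median log2 fold change of the entries was -5.61 at the fovea and -4.31 at the periphery, beside 0.04 and 0.02 over all genes tested. For comparison, 7 other endothelial genes used as a reference (CDH5, ESAM, ERG, EGFL7, ROBO4, MMRN2 and SOX17) were all called lower in retina at both locations, with log2 fold changes between -5.84 and -2.77 at the fovea.

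**Figure D1:**
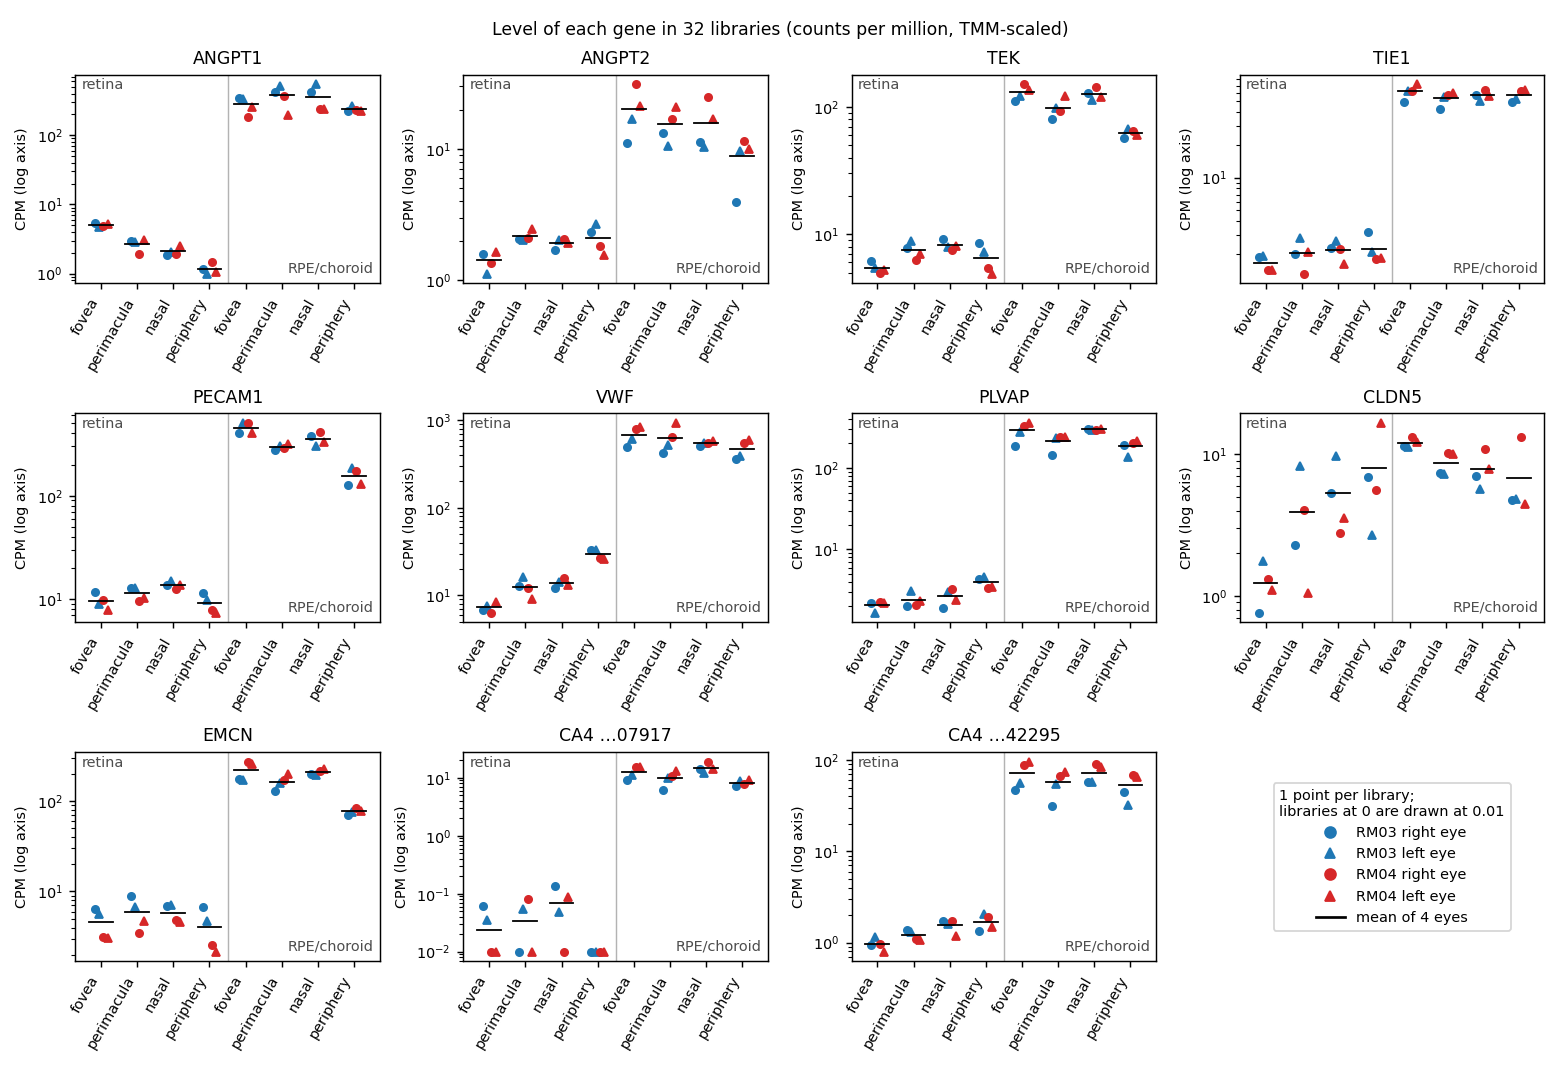
Level of each gene in CPM (vertical log axis, 1 panel per entry) in the 32 libraries, with retina on the left and RPE/choroid on the right of each panel and the 4 locations along the horizontal axis. Each point is 1 library, libraries at 0 are drawn at the foot of the axis, colour marks the animal, shape the eye and the black line the mean of 4 eyes. RPE/choroid lies above retina throughout except for CLDN5, where the ranges of the tissues overlap outside the fovea.

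ANGPT1 (ENSMMUG00000017745) encodes the activating ligand. Its retinal level was 5.46, 4.72, 4.86 and 5.19 CPM at the fovea, and the perimacula had 2.97, 2.88, 1.92 and 3.12 CPM. The values were 1.86, 2.05, 1.95 and 2.54 CPM at the nasal location and 1.16, 0.991, 1.49 and 1.06 CPM at the periphery. The fovea was above all other libraries and the periphery below them, with no overlap between the fovea and any other location. ANGPT1 fell from the fovea to the perimacula (log2 fold change 0.95, standard error 0.18, adjusted p = 0.00202, edgeR) and to the nasal location (1.31, standard error 0.17, adjusted p = 1.72e-05, edgeR), both within shared flow cells. Against the periphery the log2 fold change was 2.16 (standard error 0.19, adjusted p = 1.18e-06, edgeR), a 4.46-fold difference seen in 4 of 4 eyes. It was the only entry that was called higher at the retinal fovea than elsewhere.

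In RPE/choroid, ANGPT1 showed a different order. The values were 347, 339, 182 and 255 CPM at the fovea, 427, 512, 373 and 195 CPM in the perimacula, 422, 551, 244 and 239 CPM at the nasal location and 223, 266, 231 and 227 CPM at the periphery. The 4 groups overlapped, and both RM03 eyes exceeded both RM04 eyes at 3 of 4 locations, with a mean of 386 against 243 CPM over all locations. The fovea did not differ from the periphery by the test (log2 fold change 0.19, standard error 0.20, adjusted p = 0.474, edgeR). The perimacula was called higher than the periphery (0.60, standard error 0.20, adjusted p = 0.04, edgeR), a call that was lost with the eye as a block (adjusted p = 0.0698, edgeR), in the absence of RM03 right, RM03 left or RM04 right (adjusted p = 0.18, 0.188 and 0.108, edgeR), and without the monkey covariate, with only the groups compared or with 2 lanes per library (adjusted p = 0.0918, 0.0767 and 0.0702, edgeR). It was also lost without the 2 libraries high in Schwann cell genes, an alternative chosen after seeing the data (adjusted p = 0.116, edgeR). The change from fovea to periphery differed between the tissues, by 1.92 on the log2 scale (standard error 0.30, adjusted p = 4.48e-05, edgeR interaction test), and so did the changes to the perimacula (1.34, adjusted p = 0.00584, edgeR) and to the nasal location (1.61, adjusted p = 0.000643, edgeR). The difference for the perimacula was not called without the RM03 right eye (adjusted p = 0.061, edgeR) or the RM04 right eye (adjusted p = 0.0926, edgeR). The tissue difference of ANGPT1 widened outward, from a log2 fold change of -5.72 at the fovea to -7.64 at the periphery, where the retina held 0.496% of the RPE/choroid level.

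ANGPT2 (ENSMMUG00000010139), the context-dependent ligand, was low in retina at every location. It had 1.58, 1.11, 1.35 and 1.64 CPM at the fovea, 2.06, 2.01, 2.08 and 2.47 CPM in the perimacula, 1.68, 2.03, 2.05 and 1.91 CPM at the nasal location and 2.31, 2.68, 1.81 and 1.55 CPM at the periphery. The fovea libraries lay below those of the perimacula and the nasal location, but overlapped the periphery. Between fovea and perimacula the log2 fold change was -0.55 (standard error 0.20, adjusted p = 0.0521, edgeR), lower at the fovea in 4 of 4 eyes, which was called under 6 of 13 alternatives, among them DESeq2 (adjusted p = 0.0319). It was called higher at the periphery than at the fovea (log2 fold change -0.49, standard error 0.20, adjusted p = 0.0457, edgeR), in 3 of 4 eyes, but that call was lost under 10 of 13 alternatives, among them the eye as a block (adjusted p = 0.0665, edgeR) and the omission of RM03 right, RM03 left or RM04 right (adjusted p = 0.153, 0.289 and 0.106, edgeR).

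In RPE/choroid the direction was the opposite one. ANGPT2 had 11.1, 17.1, 31.3 and 21.2 CPM at the fovea, 13.2, 10.5, 16.9 and 21 CPM in the perimacula, 11.3, 10.4, 24.8 and 17 CPM at the nasal location and 3.95, 9.62, 11.6 and 10.0 CPM at the periphery. Both RM04 eyes were above both RM03 eyes at 4 of 4 locations. Within each eye the fovea was above the periphery, while the group ranges overlapped at 11.1 to 11.6 CPM. ANGPT2 fell from fovea to periphery (log2 fold change 1.16, standard error 0.25, adjusted p = 0.00371, edgeR), and this call held under all alternatives run. It was also called higher at the perimacula (0.80, adjusted p = 0.0307, edgeR) and the nasal location (0.81, adjusted p = 0.0127, edgeR) than at the periphery, each of which was lost under 5 alternatives, including the omission of RM04 right (adjusted p = 0.0742 and 0.0802, edgeR) or RM04 left (adjusted p = 0.171 and 0.0592, edgeR), and for the perimacula also of RM03 right (adjusted p = 0.076, edgeR). The difference between the tissues in the change from fovea to periphery was -1.75 (standard error 0.40, adjusted p = 0.00173, edgeR interaction test). The retinal level was 7.05% of that in RPE/choroid at the fovea and 23.7% at the periphery.

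TEK (ENSMMUG00000006080) encodes TIE2, the receptor of both ligands. Retina had 6.11, 5.45, 4.97 and 5.25 CPM at the fovea, 7.85, 8.88, 6.29 and 7 CPM in the perimacula, 9.14, 7.92, 7.54 and 8.09 CPM at the nasal location and 8.46, 7.24, 5.42 and 4.87 CPM at the periphery. The fovea lay below the perimacula and the nasal location with no overlap, whereas the periphery spanned both. TEK was lower at the fovea than at the nasal location (log2 fold change -0.55, standard error 0.11, adjusted p = 0.000852, edgeR) in 4 of 4 eyes. It was also lower at the fovea than at the perimacula (-0.40, adjusted p = 0.0225, edgeR), although not without the monkey covariate (adjusted p = 0.133, edgeR) or without RM03 right, RM03 left or RM04 right (adjusted p = 0.059, 0.0986 and 0.0763, edgeR). The nasal location exceeded the periphery (0.37, adjusted p = 0.0142, edgeR), a call that was lost under 5 of 12 alternatives, among them the omission of either RM04 eye (adjusted p = 0.105 and 0.173, edgeR). The fovea and the periphery did not differ by the test (-0.17, standard error 0.12, adjusted p = 0.215, edgeR).

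In RPE/choroid, TEK had 112, 123, 151 and 137 CPM at the fovea, 80.9, 98.4, 93.5 and 123 CPM in the perimacula, 128, 113, 145 and 119 CPM at the nasal location and 57, 66.7, 64.8 and 60.2 CPM at the periphery. All 12 libraries of the other locations were above all 4 of the periphery. The log2 fold change against the periphery was 1.06 for the fovea (standard error 0.11, adjusted p = 4.14e-05, edgeR), 0.65 for the perimacula (adjusted p = 0.00123, edgeR) and 1.01 for the nasal location (adjusted p = 6.07e-06, edgeR), and none of these calls was lost under any alternative run. Within the shared flow cells, the fovea differed from the perimacula by 0.41 (adjusted p = 0.231, edgeR) and from the nasal location by 0.05 (adjusted p = 0.87, edgeR). The change from fovea to periphery differed between the tissues by -1.29 (standard error 0.22, adjusted p = 0.000134, edgeR interaction test).

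TIE1 (ENSMMUG00000010660), the partner receptor, was the member with no called difference between locations. In retina it had 1.87, 1.93, 1.43 and 1.43 CPM at the fovea, 1.99, 2.79, 1.31 and 2.06 CPM in the perimacula, 2.28, 2.65, 2.21 and 1.6 CPM at the nasal location and 3.18, 2.07, 1.80 and 1.82 CPM at the periphery. In RPE/choroid it had 49.6, 62.7, 62.7 and 72.2 CPM at the fovea, 42.6, 54.9, 57.2 and 59.1 CPM in the perimacula, 57.3, 50.8, 64.2 and 56.0 CPM at the nasal location and 49.1, 53.0, 62.1 and 63.4 CPM at the periphery. The locations overlapped in both tissues. Between fovea and periphery the log2 fold change was -0.35 in retina (standard error 0.19, adjusted p = 0.123, edgeR) and 0.11 in RPE/choroid (standard error 0.10, adjusted p = 0.369, edgeR), and their difference was not called (-0.49, adjusted p = 0.189, edgeR interaction test). The standard error of the RPE/choroid estimate was the lowest of the 11 entries in this comparison. Under the alternatives run, TIE1 was not called in any of the comparisons between locations of a tissue or in any interaction of tissue and location, while it was called lower in retina than in RPE/choroid at each location. The interaction test uses the same monkey term for both tissues. Both RM03 eyes were above both RM04 eyes at 3 of 4 retinal locations, and both RM04 eyes were above at 2 of 4 in RPE/choroid.

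**Figure D2:**
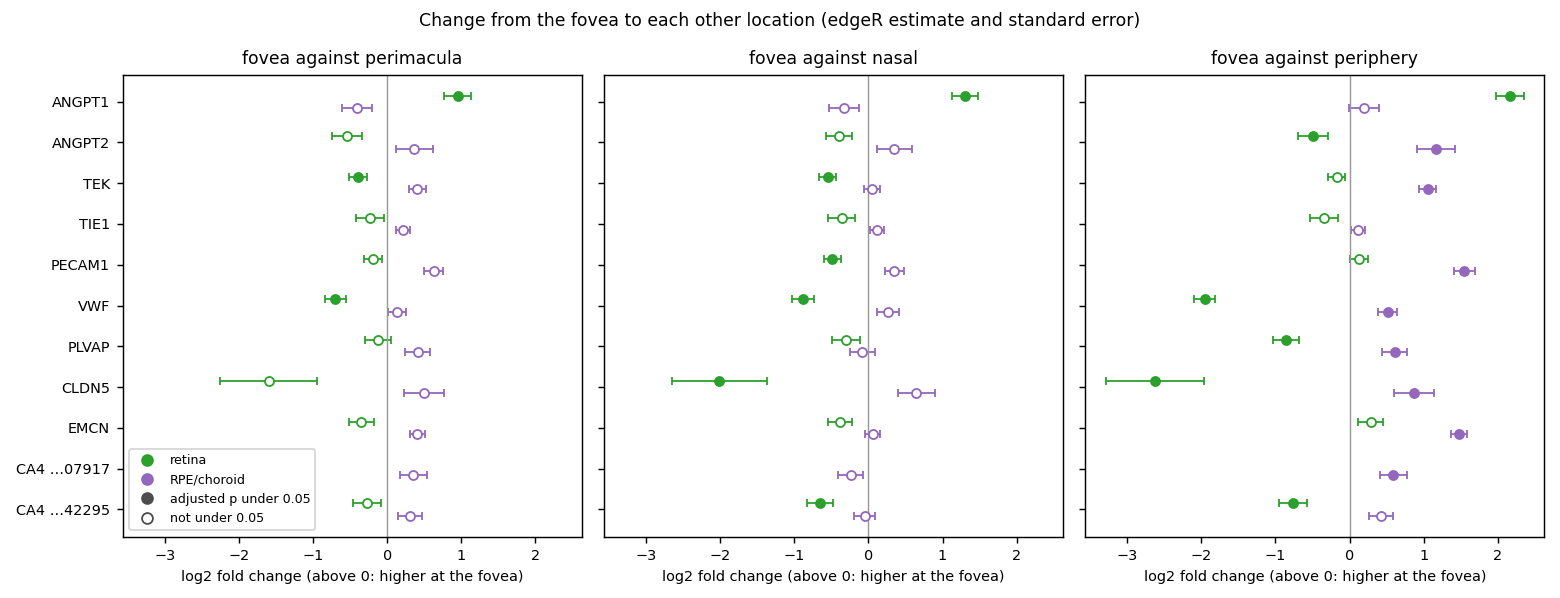
The log2 fold change of each entry between the fovea and the perimacula, the nasal location or the periphery (horizontal axis, above 0 where the fovea is higher) in retina (green) and RPE/choroid (purple). Points are edgeR estimates, bars standard errors, and filled points have an adjusted p under 0.05. In retina most called points lie below 0 with ANGPT1 as the exception, and in RPE/choroid the called points lie above 0 and appear against the periphery alone.

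PECAM1 (ENSMMUG00000011809), an adhesion molecule of endothelial junctions, had 11.8, 8.98, 9.83 and 7.82 CPM at the retinal fovea, 12.9, 12.9, 9.66 and 10.3 CPM in the perimacula, 13.8, 14.9, 12.6 and 13.7 CPM at the nasal location and 11.6, 9.92, 7.94 and 7.42 CPM at the periphery. All 4 nasal libraries were above the fovea and the periphery libraries. The nasal location exceeded the fovea (log2 fold change -0.48 for fovea against nasal, standard error 0.11, adjusted p = 0.00173, edgeR) and the periphery (0.60, adjusted p = 0.000373, edgeR). Fovea and periphery did not differ by the test (0.13, adjusted p = 0.346, edgeR). The perimacula was called higher than the periphery (0.32, adjusted p = 0.038, edgeR), but not without RM04 right (adjusted p = 0.0709, edgeR), without RM04 left (adjusted p = 0.144, edgeR) or without the monkey covariate (adjusted p = 0.184, edgeR).

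The largest difference between fovea and periphery of RPE/choroid among the 11 entries was that of PECAM1. It had 399, 505, 499 and 405 CPM at the fovea, 276, 299, 288 and 313 CPM in the perimacula, 374, 305, 411 and 330.3 CPM at the nasal location and 128, 186, 172 and 129 CPM at the periphery. The periphery lay below all other libraries, and the fovea lay above the perimacula with no overlap. The log2 fold change was 1.55 between fovea and periphery (standard error 0.14, adjusted p = 1.33e-05, edgeR), 0.93 between perimacula and periphery (adjusted p = 0.000448, edgeR) and 1.2 between nasal location and periphery (adjusted p = 8.12e-06, edgeR). Between fovea and perimacula it was 0.63 (standard error 0.13, adjusted p = 0.142, edgeR), in 4 of 4 eyes, which passed the threshold with DESeq2 and when only these 2 groups were fitted. The tissues differed in the change from fovea to periphery by -1.46 (standard error 0.20, adjusted p = 1.26e-05, edgeR interaction test).

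VWF (ENSMMUG00000022893) encodes von Willebrand factor, a clotting protein stored in endothelial granules. The retinal level was 6.83, 7.49, 6.33 and 8.47 CPM at the fovea, 12.8, 16.1, 12 and 9 CPM in the perimacula, 12.1, 14.2, 15.6 and 13.2 CPM at the nasal location and 33.3, 32.6, 26.5 and 26.1 CPM at the periphery. It was the reverse of ANGPT1, with the fovea below and the periphery above all other libraries. VWF rose from the fovea to the perimacula (log2 fold change -0.70, standard error 0.14, adjusted p = 0.00265, edgeR), to the nasal location (-0.89, adjusted p = 0.000155, edgeR) and to the periphery (-1.96, standard error 0.14, adjusted p = 3.43e-07, edgeR), which is 3.88-fold above the fovea. The first and the second of these lie within the shared flow cells, and all held under the alternatives run. The pigment epithelium genes summed to 122 to 207 CPM at the retinal fovea, 117 to 200 CPM at the perimacula, 214 to 395 CPM at the nasal location and 485 to 979 CPM at the periphery. Their mean sum was 151 CPM at the fovea and 172.6 CPM at the perimacula. Of 2 red cell genes the sum was 2.77 to 5.41 CPM at the fovea and 19 to 27.2 CPM at the periphery. The retinal VWF level was 6.27% of that in RPE/choroid at the periphery, beside 7.53% for the pigment epithelium genes, 6.61% for 10 mural cell genes, 7.76% for the 7 endothelial reference genes, 6.0% for PECAM1, 1.69% for 5 fibroblast genes and 0.496% for ANGPT1. The part of other cell types in the VWF differences between the retinal locations was not tested.

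In RPE/choroid VWF ran the other way and followed the animal. It had 487, 607, 786 and 828 CPM at the fovea, 421, 525, 635 and 929 CPM in the perimacula, 510.1, 554, 549 and 578 CPM at the nasal location and 363, 385, 548 and 594 CPM at the periphery. The RM04 eyes were above the RM03 eyes at 3 of 4 locations, and the groups overlapped. In 4 of 4 eyes the fovea was above the periphery (log2 fold change 0.51, standard error 0.13, adjusted p = 0.00708, edgeR), which without the monkey covariate was not called (adjusted p = 0.157, edgeR). The perimacula also exceeded the periphery (0.38, adjusted p = 0.0353, edgeR), but this call was lost without any 1 of the 4 eyes (adjusted p from 0.0523 to 0.153, edgeR). The tissues differed in the change from fovea to periphery by -2.52 (standard error 0.32, adjusted p = 4.78e-06, edgeR interaction test), and in that from fovea to nasal location by -1.21 (adjusted p = 0.00204, edgeR), the latter not without RM04 right (adjusted p = 0.0881, edgeR).

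EMCN (ENSMMUG00000038085) encodes endomucin, a surface sialomucin of capillary and venous endothelium. In retina it had 6.38, 5.71, 3.13 and 3.05 CPM at the fovea, 8.95, 6.78, 3.5 and 4.77 CPM in the perimacula, 6.94, 7.01, 4.82 and 4.62 CPM at the nasal location and 6.72, 4.71, 2.55 and 2.16 CPM at the periphery. Both RM03 eyes were above both RM04 eyes at 4 of 4 locations, with means of 6.65 and 3.58 CPM. EMCN exceeded the periphery at the perimacula (log2 fold change 0.63, adjusted p = 0.00725, edgeR) and at the nasal location (0.65, adjusted p = 0.00387, edgeR). Neither call held without the monkey covariate (adjusted p = 0.291 and 0.273, edgeR) or without RM04 left (adjusted p = 0.0654 and 0.0548, edgeR).

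The animals stood in the opposite order in RPE/choroid, where EMCN was higher in RM04 at 4 of 4 locations. It had 174, 170.1, 269.8 and 256 CPM at the fovea, 129, 155, 170.1 and 197 CPM in the perimacula, 196, 192, 215 and 222 CPM at the nasal location and 70.3, 74.7, 83.7 and 76.6 CPM at the periphery. Every periphery library was below every other library. The log2 fold change against the periphery was 1.47 at the fovea (standard error 0.11, adjusted p = 4.75e-06, edgeR), 1.07 at the perimacula (adjusted p = 4.57e-05, edgeR) and 1.42 at the nasal location (adjusted p = 1.41e-07, edgeR), and these calls were kept under all alternatives run. The tissues differed in the change from fovea to periphery by -1.31 (adjusted p = 0.0228, edgeR interaction test), which was not called without RM03 left, RM04 right or RM04 left (adjusted p = 0.0707, 0.075 and 0.0623, edgeR). This test uses the same monkey term for both tissues, which cannot take up the opposite order of the animals, so that order adds to its spread.

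PLVAP (ENSMMUG00000002413) encodes the diaphragm protein of endothelial fenestrae, and in the eye it marks the choriocapillaris and is kept low in barrier vessels. Its level in retina was 2.21, 1.67, 2.27 and 2.22 CPM at the fovea, 2.01, 3.06, 2.10 and 2.36 CPM in the perimacula, 1.91, 2.99, 3.29 and 2.41 CPM at the nasal location and 4.38, 4.66, 3.40 and 3.46 CPM at the periphery. The periphery was above all other retina libraries, while the fovea, perimacula and nasal location overlapped. PLVAP was higher at the periphery than at the fovea (log2 fold change -0.86, standard error 0.17, adjusted p = 0.000953, edgeR), the perimacula (-0.74, adjusted p = 0.00414, edgeR) and the nasal location (-0.57, adjusted p = 0.0233, edgeR). The last call was lost without RM03 right (adjusted p = 0.121, edgeR) or RM04 left (adjusted p = 0.0706, edgeR), and that for the perimacula without RM03 right (adjusted p = 0.0637, edgeR). No difference of PLVAP was called within the shared flow cells in retina. The pigment epithelium genes were also highest at the retinal periphery, and their part in the PLVAP values was not tested.

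In RPE/choroid, PLVAP had 188, 278, 332 and 358 CPM at the fovea, 145, 235, 240.0 and 241 CPM in the perimacula, 305, 295, 296 and 302 CPM at the nasal location and 191, 136, 202 and 217 CPM at the periphery. The RM03 right eye was lowest at the fovea and, apart from the others, at the perimacula, and at the fovea it lay within the range of the periphery. The nasal libraries, which differed least among themselves, were all above the periphery. PLVAP exceeded the periphery at the nasal location (log2 fold change 0.70, standard error 0.17, adjusted p = 0.00368, edgeR) and at the fovea (0.61, standard error 0.17, adjusted p = 0.015, edgeR), the latter in 3 of 4 eyes and not without RM04 right, RM04 left or the monkey covariate (adjusted p = 0.0939, 0.0981 and 0.0553, edgeR). The tissues differed in the change from fovea to periphery by -1.52 (standard error 0.29, adjusted p = 0.000311, edgeR interaction test). Across tissues, PLVAP at the fovea was 0.725% as high in retina as in RPE/choroid, which is -7.06 on the log2 scale (standard error 0.26, adjusted p = 2.99e-15, edgeR) and lies beyond the range of the 7 reference genes. A low retinal share at the fovea was not particular to PLVAP. It was 1.08% for VWF, 1.35% for CA4 ENSMMUG00000042295 and 0.188% for CA4 ENSMMUG00000007917.

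CA4 encodes carbonic anhydrase 4, an enzyme on the surface of choriocapillaris endothelium. Its entry ENSMMUG00000007917 was at or near 0 in retina, where the 4 libraries of a location held 5 counts together at the fovea, 8 at the perimacula, 17 nasally and 0 peripherally. In RPE/choroid it had 9.21, 11, 15.5 and 15.6 CPM at the fovea, 6.28, 10.1, 10.6 and 13.2 CPM in the perimacula, 14.5, 12.2, 18.9 and 14.2 CPM at the nasal location and 7.30, 8.92, 7.8 and 9 CPM at the periphery. Against 3 counts over the group as the floor of the retinal periphery (0.00978 CPM), RPE/choroid was at least 844-fold higher there. This bound is for this entry alone and allows for counting only, not for the spread between libraries. The other entry, ENSMMUG00000042295, had 0.943, 1.15, 0.972 and 0.796 CPM at the retinal fovea and 1.33, 2.05, 1.89 and 1.48 CPM at the retinal periphery, all fovea libraries lying below all periphery libraries. Its mean at the retinal periphery was 3.19% of that in RPE/choroid. In RPE/choroid it had 46.5, 55.6, 88.1 and 95.9 CPM at the fovea, 31.6, 54.5, 67.6 and 75.0 CPM in the perimacula, 57.7, 57.5, 89.5 and 84.5 CPM at the nasal location and 44.3, 32.2, 69.3 and 65.8 CPM at the periphery, with RM04 above RM03 at 4 of 4 locations.

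Both CA4 entries were called higher at the nasal location than at the periphery of RPE/choroid, ENSMMUG00000007917 by 0.83 on the log2 scale (standard error 0.17, adjusted p = 0.00136, edgeR) and ENSMMUG00000042295 by 0.47 (standard error 0.14, adjusted p = 0.0155, edgeR). The second of these was lost without RM04 right, RM04 left or the monkey covariate (adjusted p = 0.0798, 0.068 and 0.302, edgeR). Between fovea and periphery, ENSMMUG00000007917 was called (0.59, standard error 0.18, adjusted p = 0.0231, edgeR) and ENSMMUG00000042295 was not (0.42, standard error 0.16, adjusted p = 0.0536, edgeR), although it was called under 8 alternatives, among them DESeq2 (adjusted p = 0.0251) and the omission of RM03 right (adjusted p = 0.0194, edgeR). The call of ENSMMUG00000007917 was lost without RM04 right, RM04 left or the covariate (adjusted p = 0.144, 0.119 and 0.0581, edgeR), and the 2 entries summed, an alternative chosen after seeing the data, gave 0.44 (adjusted p = 0.0346, edgeR). In retina ENSMMUG00000042295 was lower at the fovea than at the periphery (-0.76, standard error 0.19, adjusted p = 0.00361, edgeR) and than at the nasal location (-0.66, adjusted p = 0.00657, edgeR), the latter not with 2 lanes per library (adjusted p = 0.0611, edgeR). Its call between retinal perimacula and periphery (-0.49, adjusted p = 0.0478, edgeR) was lost under 10 of 13 alternatives, including the eye as a block (adjusted p = 0.0614, edgeR) and the omission of RM03 left, RM04 right or RM04 left (adjusted p = 0.197, 0.223 and 0.138, edgeR). The change from fovea to periphery of this entry differed between the tissues by -1.19 (standard error 0.36, adjusted p = 0.0123, edgeR interaction test), though not without RM04 right (adjusted p = 0.0751, edgeR).

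CLDN5 (ENSMMUG00000044567) encodes claudin-5, the main tight junction protein of barrier endothelium. In retina it had 0.759, 1.77, 1.32 and 1.09 CPM at the fovea, 2.27, 8.28, 4.03 and 1.05 CPM in the perimacula, 5.29, 9.74, 2.78 and 3.54 CPM at the nasal location and 6.86, 2.71, 5.62 and 16.7 CPM at the periphery. The spread within the perimacula, nasal and periphery groups was wide, and the eye with the highest level was RM03 left at the perimacula and the nasal location and RM04 left at the periphery. All the same, the fovea lay below the nasal location and the periphery with no overlap. CLDN5 was lower at the fovea than at the nasal location (log2 fold change -2.01, standard error 0.65, adjusted p = 0.0167, edgeR), which was not called without RM03 right (adjusted p = 0.0886, edgeR), and than at the periphery (-2.62, standard error 0.66, adjusted p = 0.00406, edgeR), which was kept under all alternatives run.

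In RPE/choroid CLDN5 had 11.4, 11.2, 13.3 and 12.2 CPM at the fovea, 7.40, 7.25, 10.2 and 9.98 CPM in the perimacula, 6.99, 5.68, 10.8 and 7.91 CPM at the nasal location and 4.74, 4.84, 13.2 and 4.43 CPM at the periphery. The fovea was above the perimacula and the nasal location with no overlap, and above the periphery but for the RM04 right eye, which at the periphery held about as much as at the fovea. The fovea exceeded the periphery (0.87, standard error 0.28, adjusted p = 0.025, edgeR), although not without RM03 right or RM03 left (adjusted p = 0.13 and 0.133, edgeR), without the monkey covariate (adjusted p = 0.0752, edgeR), or without the 2 libraries high in Schwann cell genes, an alternative chosen after seeing the data (adjusted p = 0.0787, edgeR). The tissues differed in the change from fovea to periphery by -3.44 (standard error 0.76, adjusted p = 0.00122, edgeR interaction test) and to the nasal location by -2.75 (adjusted p = 0.00738, edgeR), the latter not without RM03 right (adjusted p = 0.088, edgeR). Retina and RPE/choroid differed at the fovea (log2 fold change -3.22, standard error 0.57, adjusted p = 3.65e-05, edgeR) and not, by the test, at the perimacula (-1.05, standard error 0.53, adjusted p = 0.078, edgeR), the nasal location (-0.52, standard error 0.51, adjusted p = 0.363, edgeR) or the periphery (0.22, standard error 0.52, adjusted p = 0.714, edgeR). The tissues were called different at the perimacula with DESeq2 (adjusted p = 0.0464), and at the perimacula and the nasal location without RM03 left (adjusted p = 0.00322 and 0.0473, edgeR). In the deposited annotation the symbols of CLDN5 and of CA4 ENSMMUG00000042295 have the least orthology support among the entries, a single resource for CLDN5 and none for that CA4 entry.

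**Figure D3:**
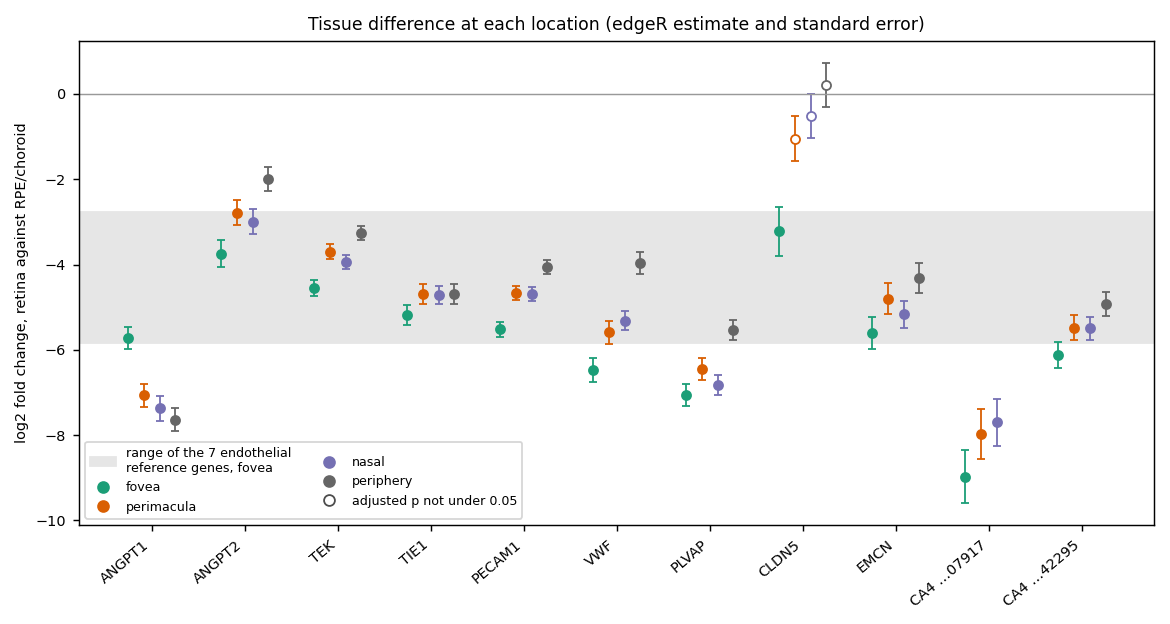
The log2 fold change between retina and RPE/choroid (vertical axis) of each entry at each location, with standard errors. Open points have an adjusted p that is not under 0.05, and the grey band spans the 7 endothelial reference genes at the fovea. ANGPT1 moves down from the fovea outward and most others move up, CLDN5 reaches 0 outside the fovea, and the periphery of CA4 ENSMMUG00000007917 is left out because all 4 retina libraries are at 0.

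Counted over the members in retina, 3 of the 10 entries that passed the filter on low counts were called between fovea and perimacula, where 35.2% of all 15380 genes tested were called, and 6 of 10 between fovea and periphery, where 67.0% were called. CA4 ENSMMUG00000007917 did not pass the filter. Between perimacula and periphery it was 6 of 10 against a background of 50.3%, between fovea and nasal location 6 of 10 against 52.2%, between nasal location and periphery 6 of 10 against 48.7%, and between perimacula and nasal location 0 of 10 against 1.49%. In this last comparison 2 entries had an unadjusted p under 0.05, beside 2569 of 15486 genes, and DESeq2 called 0 entries and 785 genes. These shares lie near the background.

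In RPE/choroid, 8 of 11 entries were called between fovea and periphery, all higher at the fovea, beside 44.1% of all 15674 genes tested in either direction and 21.2% as higher at the fovea. Between perimacula and periphery 6 of 11 were called, all higher at the perimacula, with backgrounds of 34.9% and 17.7%, and between nasal location and periphery 7 of 11, all higher at the nasal location, with backgrounds of 44.6% and 21.8%. These 3 comparisons share the periphery libraries. Without the monkey covariate the counts were 4, 3 and 5. For these comparisons the counts over all genes are not among those listed further below as moved under that setting. The shares over all genes without the covariate are not given, so whether the members still exceeded the background there cannot be told. Within the shared flow cells none was called, between fovea and perimacula against a background of 0.0447%, between fovea and nasal location against 0.361%, and between perimacula and nasal location against 3.07%. At an unadjusted p under 0.05 there were 5, 2 and 5 entries in these comparisons, beside 1678 of 15674, 2449 of 15789 and 3075 of 15789 genes. DESeq2 called 3, 0 and 4 entries, beside 314, 490 and 1247 genes. The interaction of tissue and location was called for 9 of 11 entries between fovea and periphery, 8 of them below 0, with ANGPT1 the exception (40.2% of all genes), for 3 between fovea and perimacula (11.5%) and for 5 between fovea and nasal location (23.5%).

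Other cell types also changed between the RPE/choroid locations. The summed level of 10 mural cell genes was 5761 to 8688 CPM at the fovea, 3909 to 4761 CPM at the perimacula, 3604 to 5767 CPM at the nasal location and 1016 to 2212 CPM at the periphery. Of the 10, 9 were called higher at the fovea than at the periphery, beside 21.2% of all genes tested. Of 5 fibroblast genes the sum was 2549 to 3341 CPM at the fovea and 4583 to 9417 CPM at the periphery. The 4 Schwann cell genes summed to 68.0 to 82.3 CPM at the fovea and 396 to 11520 CPM at the periphery. Their part in the differences of the members from the periphery was not tested, and leaving out the 2 libraries highest in Schwann cell genes gave 8 members called between fovea and periphery, with CLDN5 lost (adjusted p = 0.0787, edgeR) and CA4 ENSMMUG00000042295 gained (adjusted p = 0.048, edgeR). Kept in were the other periphery libraries, with 396 to 3875 CPM over Schwann cell genes, and RM04 left at the perimacula, with 1590 CPM.

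Of the 7 endothelial reference genes, 6 were called higher at the fovea than at the periphery of RPE/choroid, beside 21.2% of all genes tested, and none lower. The log2 fold changes of the 7 ran from -0.29 for EGFL7 to 2.26 for SOX17 with a median of 0.69. Their mean log2 CPM was 6.60 ± 0.20 at the fovea (SD, n = 4 eyes), 6.20 ± 0.19 in the perimacula, 6.34 ± 0.14 nasally and 5.74 ± 0.26 peripherally. The level of each member was therefore also expressed relative to this mean, as the difference of log2 values in each library. On this scale PECAM1 was 0.71 ± 0.17 (SD of 4 eyes) and EMCN 0.62 ± 0.35 higher at the fovea than at the periphery, and TIE1 was 0.74 ± 0.07 lower. These 3 of 11 entries did not overlap between the locations, whereas 48.7% of all genes did not. The remaining entries overlapped, with TEK at 0.21 ± 0.26, ANGPT2 at 0.34 ± 0.42, CLDN5 at 0.12 ± 0.54, PLVAP at -0.25 ± 0.44, VWF at -0.34 ± 0.14 and ANGPT1 at -0.66 ± 0.34. The CA4 entries were at -0.26 ± 0.44 (ENSMMUG00000007917) and -0.42 ± 0.26 (ENSMMUG00000042295). Despite the overlap, VWF, ANGPT1 and CA4 ENSMMUG00000042295 were lower at the fovea within every eye. The reference mean itself was 0.86 ± 0.13 higher at the fovea, while TIE1 by itself was not called between these locations. The relative value of TIE1 therefore mostly holds the change of the reference. The values carry no test.

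**Figure D4:**
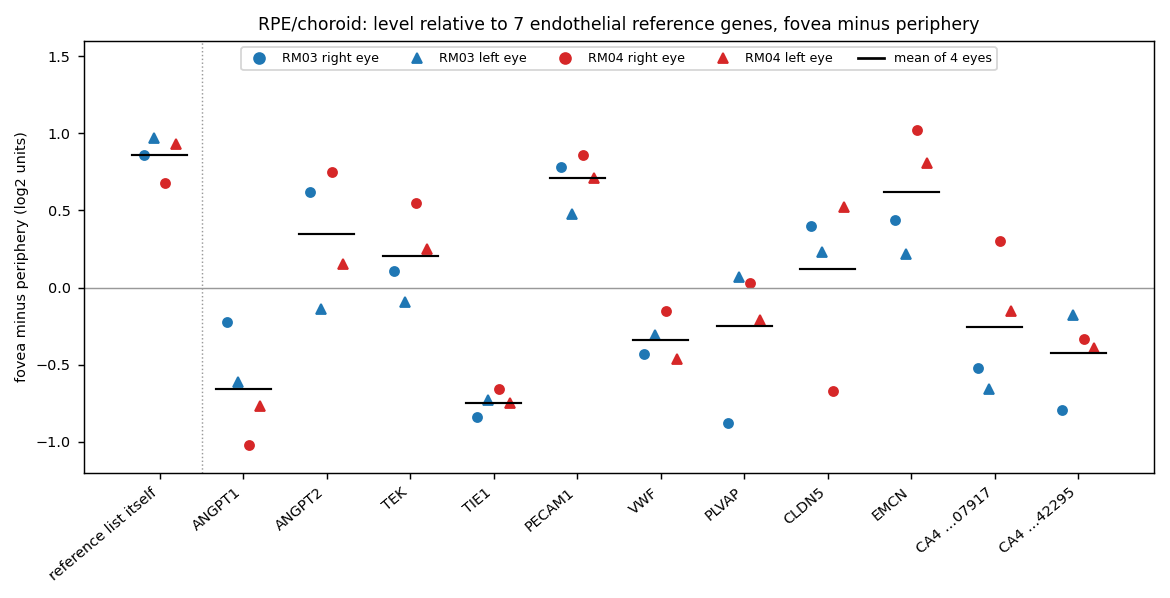
Fovea minus periphery in RPE/choroid, in log2 units, for the mean of the 7 endothelial reference genes (left of the dotted line) and for each entry relative to that mean. Each point is 1 eye and the black line the mean of 4 eyes. The reference itself is higher at the fovea in 4 of 4 eyes, and PECAM1 and EMCN are above it in every eye. TIE1, ANGPT1, VWF and CA4 ENSMMUG00000042295 are below it in every eye.

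The other genes of the pathway were described from a list of 8, of which 7 were tested in RPE/choroid and 6 in retina. In RPE/choroid, beside 21.2% of all genes tested, 3 were called higher at the fovea than at the periphery. These were KLF2, a flow-responsive transcription factor of endothelium (log2 fold change 2.75, adjusted p = 8.87e-06, edgeR), NOS3, the endothelial nitric oxide synthase (1.76, adjusted p = 5.89e-05, edgeR), and PTPRB, the phosphatase VE-PTP that acts on TIE2 (1.10, adjusted p = 3.58e-05, edgeR). The adaptor DOK2 was called lower (-0.55, adjusted p = 0.0499, edgeR), and FOXO1, the transcription factor restrained by TIE2 signalling, was not called (0.16, adjusted p = 0.38, edgeR), nor were ANGPT4 and SVEP1. In retina, KLF2 (3.17, adjusted p = 0.000281, edgeR) and SVEP1 (0.75, adjusted p = 0.014, edgeR) were called higher at the fovea than at the periphery. Their mean levels were low, 2.0 and 0.65 CPM at the retinal fovea and 0.2265 and 0.394 CPM at the periphery. Within the shared flow cells, neither was called between the retinal fovea and the perimacula or nasal location. FOXO1 was called lower at the fovea in both (-0.44 and -0.47, adjusted p = 0.0106 and 0.00116, edgeR). In RPE/choroid none of the 7 was called in these 2 comparisons. All 7 were lower in retina than in RPE/choroid at the fovea.

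Of 4 further choriocapillaris genes, KDR and NOSTRIN were called higher at the fovea than at the periphery of RPE/choroid (log2 fold change 0.90 and 0.63, adjusted p = 0.00102 and 0.0023, edgeR). VWA1 and RGCC were not (-0.01 and 0.77, adjusted p = 0.966 and 0.0556, edgeR), and over all genes tested 21.2% were called higher at the fovea. KDR, the VEGF receptor that retinal neurons and glia also express, was higher in retina than in RPE/choroid at the periphery (1.48, adjusted p = 1.26e-08, edgeR). Of 5 barrier genes, ABCB1, LEF1 and MFSD2A were called higher at the fovea than at the periphery of RPE/choroid (0.83, 1.7 and 1.6, adjusted p = 3.16e-05, 4.93e-05 and 0.0123, edgeR), beside 21.2% of all genes tested. ABCG2 and SLC38A5 were not called (0.25 and -0.38, adjusted p = 0.0524 and 0.332, edgeR). At the fovea, ABCB1, ABCG2, LEF1 and MFSD2A were lower in retina than in RPE/choroid (-2.77, -3.21, -4.26 and -3.7), while SLC38A5 was higher (1.09, adjusted p = 0.00295, edgeR). Between fovea and periphery of retina, where 67.0% of all genes tested were called in either direction, the barrier genes went both ways. ABCB1 and LEF1 were called higher at the fovea (1.03 and 0.59, adjusted p = 0.000364 and 0.024, edgeR) and MFSD2A and ABCG2 lower (-0.44 and -0.34, adjusted p = 0.0116 and 0.041, edgeR). SLC38A5 was not called (-0.1, adjusted p = 0.649, edgeR).

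The members did not move as a single group. Over the 16 RPE/choroid libraries the log2 levels of TEK and EMCN had a Pearson correlation of 0.97, TEK and PECAM1 of 0.95 and PECAM1 and EMCN of 0.91, while TEK and TIE1 reached 0.37 and ANGPT1 and TIE1 -0.48. The 2 CA4 entries had 0.78. Over the 16 retina libraries ANGPT1 and VWF had -0.93, VWF and PLVAP 0.86, TEK and PECAM1 0.86, and TEK and TIE1 0.68. These correlations describe libraries that share 4 eyes, 2 animals and the locations, and carry no test.

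Among 10192 genes that averaged 3 log2 CPM or more in RPE/choroid, those most like TEK were SHROOM4 and PODXL (Pearson correlation 0.976 and 0.967 over 16 libraries), which were also those most like EMCN (0.982 and 0.979). CNNM2 and SORBS2 were most like PECAM1 (0.982 and 0.979), KDR and ROBO4 most like PLVAP (0.915 and 0.899), and HYAL2 and RAMP3 most like VWF (0.918 for both). HHEX and EXOC3L1 were most like TIE1 (0.889 and 0.878), ITGA7 and ICA1 most like ANGPT2 (0.955 and 0.933), TOMM34 and DSE most like ANGPT1 (0.952 and 0.927), and ARID5A and CACTIN most like CLDN5 (0.912 and 0.899). For CA4 they were LOC717598 and ADGRF5 with ENSMMUG00000007917 (0.877 and 0.876) and PPFIBP2 and PDE4B with ENSMMUG00000042295 (0.97 and 0.947). In retina, GPR158 and EPB41L3 were most like ANGPT1 (0.983 and 0.98), ASAH2 and ZNF333 most like ANGPT2 (0.931 and 0.887), WDTC1 and UBN1 most like TEK (0.945 and 0.924), and ABCG2 and ZNF30 most like TIE1 (0.849 and 0.818), among 9815 genes.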

How the data were processed

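The authors quantified the reads of each sequencing lane against Mmul_8.0.1 with Salmon 0.13 with gene-level summaries from tximport, and the deposited values are expected counts (estimated counts scaled for transcript length) for 136 lanes. Their column is named TPM, but its sums differ between lanes, from 7932259 to 39439054. The strand setting was not given in the sources used here. Here all lanes belonging to a library were added up and rounded to whole numbers, which gave 32 libraries of 42448903 to 78574055 counts. Of 19432 entries, 10 that repeat an identifier were left out.

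Differences were tested on all genes with edgeR 4.0.16 (quasi-likelihood test, TMM, filterByExpr at a minimum count of 10, limma 3.58.1, R 4.3.3), with monkey in the model. Fits of both tissues used the same monkey term for retina and RPE/choroid. P-values were adjusted by Benjamini-Hochberg across every gene tested, and differences were called at an adjusted p under 0.05. Comparisons among fovea, perimacula and periphery of a tissue came from 12 libraries, those with the nasal location from 16, and those between tissues from 24 or 32. Correlations and relative levels used log2 CPM at a prior count of 2. The test was tried on simulated counts. Python 3.11.15, numpy 2.4.6, pandas 2.3.3 and matplotlib 3.10.9 did the rest.

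The same replicate number is the same eye by the labels, so the numbers pair the samples. For 1000 genes, deviations from the location means correlated between locations of an eye at 0.58 in retina and 0.40 in RPE/choroid, and between fellow eyes at 0.57 and 0.41. Libraries of a group differed by at least 4.46 times the variance of counting, so none was a copy of another.

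The alternatives were DESeq2 1.42.0, RLE normalization, no filter, the eye as a block, a minimum of 10 counts per library, no covariate, only the groups compared, all 4 locations, 2 lanes per library, a prior count of 0.25, the median of the reference genes, and leaving out each eye. Others, the CA4 entries summed and 2 libraries left out, were chosen after seeing the data. The members and lists were chosen with earlier results of these data known. Genes named are the 10 members, list genes where a result turns on them, and the 2 genes most correlated with each member in RPE/choroid, and in retina for the ligands and receptors. CLEC14A, ECSCR, SOX18, FOXQ1, HIGD1B, RDH5 and PF4 were not analysed here, nor were sequences.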

Additional observations from a re-analysis of the deposited data

Results flagged for a closer look

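In 4 of the 87 groups of 4 libraries whose values differ, 1 library lay far from the others. Chance gives about 1 such group in 20, and these 4 groups are near that share. They were CLDN5 in RPE/choroid at the periphery, where the RM04 right eye had 13.2 CPM against 4.43 to 4.84 in the others, PLVAP in RPE/choroid at the perimacula, where the RM03 right eye had 145 CPM against 235 to 241, PLVAP at the retinal fovea, where the RM03 left eye had 1.67 CPM, and ANGPT2 at the retinal perimacula, where the RM04 left eye had 2.47 CPM.

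The tissues differed in the change from fovea to periphery for ANGPT1 (1.92 on the log2 scale, retina minus RPE/choroid), ANGPT2 (-1.75), TEK (-1.29), PECAM1 (-1.46), VWF (-2.52), EMCN (-1.31), PLVAP (-1.52), CLDN5 (-3.44) and CA4 ENSMMUG00000042295 (-1.19). In the change from fovea to perimacula they differed for ANGPT1 (1.34), PECAM1 (-0.85) and TEK (-0.85), and in that from fovea to nasal location for ANGPT1 (1.61), CLDN5 (-2.75), PECAM1 (-0.86), TEK (-0.64) and VWF (-1.21). With an eye left out, some of these were not called. For TEK, the difference to the perimacula was lost without RM03 right, RM03 left or RM04 right (adjusted p = 0.0669, 0.126 and 0.142, edgeR) and that to the nasal location without RM03 left, RM04 right or RM04 left (adjusted p = 0.118, 0.125 and 0.154, edgeR). For PECAM1, the difference to the perimacula was lost without RM03 left or RM04 right (adjusted p = 0.126 and 0.0591, edgeR) and that to the nasal location without RM03 left (adjusted p = 0.0657, edgeR).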

How the results depend on the processing

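Of 203 values of a member in a comparison, 106 were called. Of these, 77 were kept under every alternative and 29 were lost under at least 1, and 22 of the others were called under at least 1. Apart from summing CA4, no called value changed sign, and 44 values called under neither setting did. With the CA4 entries summed, the interaction between fovea and periphery was -1.18 and called, while ENSMMUG00000007917 alone gave 2.97 and was not. The number of members called moved by more than 1.5 times in these cases. In RPE/choroid between fovea and perimacula it was 3 with DESeq2 and 2 with only the groups compared, against 0. Between fovea and periphery it was 4 without covariate, against 8. Between perimacula and periphery it was 3 without covariate and 3 with only the groups compared, against 6, and 3 to 4 with an eye left out. Between perimacula and nasal location it was 4 with DESeq2 and 1 with only the groups compared, against 0. In retina between perimacula and periphery it was 3 without covariate, against 6, and 3 to 6 with an eye left out, and between nasal location and periphery 3 to 6 with an eye left out. For the interaction between fovea and perimacula it was 5 with DESeq2, with only the groups compared and with all 4 locations, against 3, and 0 to 5 with an eye left out, and between fovea and nasal location 3 to 4 with an eye left out, against 5. The cause was not tested.

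With the eye as a replicate block the members called were 5 in place of 6 between retinal fovea and periphery, 5 in place of 6 between retinal perimacula and periphery and 5 in place of 6 between perimacula and periphery of RPE/choroid, where ANGPT2, CA4 ENSMMUG00000042295 and ANGPT1 were lost, and the block changed no other call.

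Over all genes, counts moved by more than 1.5 times as follows, with DESeq2, the eye as a block, no covariate and only the groups compared in that order. Between fovea and perimacula of RPE/choroid 7 genes became 314, 1, 1 and 357 (22 with all 4 locations, 1 with 2 lanes), between fovea and nasal location 57 became 490, 30, 4 and 346 (89 without the 2 libraries high in Schwann cell genes), and between perimacula and nasal location 484 became 1247, 269, 53 and 1677. Between perimacula and nasal location of retina 231 became 785 with DESeq2, 29 without covariate and 149 with 2 lanes, and the interaction between fovea and perimacula fell from 1872 to 1144 without covariate. With an eye left out, these 5 counts reached as low as 0, 0, 19, 14 and 368. The retinal fovea against perimacula fell from 5416 to 3225 without RM03 right, perimacula against periphery of RPE/choroid from 5471 to 3314 without RM04 left, and the interaction between fovea and nasal location from 3853 to 2510 without RM04 left. Relative levels moved by less than the SD over eyes in 361 of 378 alternatives, and TEK relative to the reference between fovea and nasal location of RPE/choroid turned from -0.21 to 0.081 with the median of the reference genes. The genes most like each member were the same at a prior count of 0.25 in 15 of 15 cases. With 4 eyes of 2 animals, differences between animals rest on a pair, and depth limits only CA4 in retina.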

Other observations

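Between fovea and periphery of RPE/choroid, arterial and venous genes were also counted. Of all 15674 genes tested there, 3317 were called higher at the fovea and 3594 lower, together 44.1%. Of 6 arterial genes, 4 were called higher at the fovea and none lower (median log2 fold change 0.82), and of 5 venous genes 3 were called higher and none lower (median 0.41). Of 7 leukocyte and macrophage genes, 1 was called higher and 3 lower (median -0.30), and the 4 Schwann cell genes were all called lower (median -5.31). These differences share the flow cells and libraries of the members' comparison, and their relation to the members was not tested.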
